A study of Mus musculus with 40 samples.

Results

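The BXD lines are recombinant inbred mouse lines that descend from DBA/2J and C57BL/6J, and each is fixed for its own mosaic of both genomes. The 36 BXD lines of this hypothalamus panel were parted here by their own Tnnt2 transcript level, the gene's read count scaled by the library total (CPM). The 13 lines with Tnnt2 under 1 CPM, called low-Tnnt2 lines, were set against the 23 lines at or above 1 CPM, called high-Tnnt2 lines. The other 4 of the 40 libraries are DBA/2J, C57BL/6J and their F1 hybrids, B6D2F1 and D2B6F1, and the split did not use them. Every strain was in the basal state without treatment and gave 1 library. A BXD library was made from a pool of 3 to 6 hypothalami, so the spread between animals of a line was not measured, and the spread in every test below is the spread between lines. The low-Tnnt2 lines are BXD29, BXD32, BXD44, BXD48, BXD51, BXD63, BXD65, BXD67, BXD70, BXD79, BXD83, BXD87 and BXD97. No genotype was used: the side of a line rests on its Tnnt2 reads alone, and the labels give neither the allele nor the sex or age.

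Tnnt2 encodes cardiac troponin T, the subunit that ties the troponin complex to tropomyosin on the thin filament of striated muscle. Its neighbour Tnni1 encodes slow skeletal troponin I, the inhibitory subunit, which is also made in the fetal heart. Troponin lets calcium switch contraction on and off. In a recombinant inbred panel, a gene whose level follows the parental allele at its own position shows separate sets of lines, and other genes close by on the chromosome tend to be inherited with it.

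Tnnt2, Tnni1 and Lad1 follow each other closely on chromosome 1, and their promoter windows are shown because the transcripts of all 3 parted the lines in the same way. Each window runs from 250 bases before to 50 bases after the first start listed for the gene by RefSeq on GRCm38.p6, plus strand. Tnnt2 is at chr1:135836084-135836383, Tnni1 at chr1:135799171-135799470 and Lad1 at chr1:135818348-135818647. Capitals mark the M-CAT element CATTCC bound by TEAD factors, the GATA motif AGATAA and the E-box CAGCTG, each searched on both strands, and no matches overlapped.
Tnnt2: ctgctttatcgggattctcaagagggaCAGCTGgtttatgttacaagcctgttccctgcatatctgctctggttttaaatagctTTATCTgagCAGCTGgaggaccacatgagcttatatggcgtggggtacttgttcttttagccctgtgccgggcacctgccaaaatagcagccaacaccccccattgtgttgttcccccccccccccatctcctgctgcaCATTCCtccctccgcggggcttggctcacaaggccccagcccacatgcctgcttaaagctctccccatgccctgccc
Tnni1: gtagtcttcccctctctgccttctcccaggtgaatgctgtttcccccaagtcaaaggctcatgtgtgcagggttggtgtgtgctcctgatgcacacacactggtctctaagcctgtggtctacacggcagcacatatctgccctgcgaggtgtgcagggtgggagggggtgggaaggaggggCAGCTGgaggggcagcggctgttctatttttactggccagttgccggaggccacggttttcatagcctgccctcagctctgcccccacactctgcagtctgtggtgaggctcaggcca
Lad1: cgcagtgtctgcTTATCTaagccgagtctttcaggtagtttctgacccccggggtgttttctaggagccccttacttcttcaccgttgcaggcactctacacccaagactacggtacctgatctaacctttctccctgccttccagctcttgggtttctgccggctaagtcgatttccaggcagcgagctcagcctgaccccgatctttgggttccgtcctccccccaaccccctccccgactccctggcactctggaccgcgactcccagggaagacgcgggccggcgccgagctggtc
The Tnnt2 window held 1 M-CAT element, 1 GATA motif and 2 E-boxes, the Tnni1 window 1 E-box and the Lad1 window 1 GATA motif. Among 32851 windows of the same length, 14.7% held the M-CAT element, 11.2% the GATA motif and 16.3% this E-box. The letters are those of the C57BL/6J reference, and they describe these windows only.

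Total counts ran from 18.4 to 40.4 M (median 24 M) in the low-Tnnt2 lines and from 12.2 to 30.1 M (median 22.6 M) in the high-Tnnt2 lines. Hypothalamic peptide genes were present on both sides, with a summed level of 839 to 1400 CPM in the low-Tnnt2 lines and 869 to 1520 CPM in the high-Tnnt2 lines. None of the 26 tested was called different by edgeR (1 had an unadjusted p under 0.05). Over all genes the shares were 0.128% called and 4.05% at an unadjusted p under 0.05. The low-Tnnt2 line BXD32 stood apart from all others. It held 808 CPM of Ttr, the choroid plexus transthyretin, and 2322 reads of 10 genes led by hindbrain and spinal cord genes such as Slc6a5 and Hoxb5. The other low-Tnnt2 lines held 3 to 50 reads of these genes and the high-Tnnt2 lines 1 to 8. The 10 genes were picked from these data, as those called outside chromosome 1 besides Ttr without a filter on low counts. S100a5 had 46 of its 48 reads in BXD83. The others had 91.4% to 98.6% of their reads over the BXD lines in BXD32, except Dbh with 65.8% and reads in 33 lines. The sum of the 10 genes is therefore only a description, mainly of BXD32. No unfiltered fit without that line was run. The extraction protocol in the labels speaks of brainstem as well as hypothalamus samples, and a part of this in BXD32 was not tested. Calls of the main fit that rest on BXD32 are given with and without it, while means, list sums and list medians keep it.

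The line values of Tnnt2 fell into groups far apart on either side of the threshold. The 13 low-Tnnt2 lines had 0 to 4 Tnnt2 reads each, 24 in all, against 53 to 202 reads in each of the 23 high-Tnnt2 lines, 2834 in all. Their lowest, median and highest levels were 0, 0.0542 and 0.153 CPM in the low-Tnnt2 lines, and 4.33, 5.17 and 7.43 CPM in the high-Tnnt2 lines. BXD87 was the line just under the threshold at 0.153 CPM, and BXD55 the line just over it at 4.33 CPM. BXD32 was the line with 0 reads, which allows a level of up to 0.129 CPM by a limit of 3 counts. Pooled over all low-Tnnt2 lines the level was 0.076 CPM (exact Poisson 95% interval 0.0487 to 0.113), and pooled over the high-Tnnt2 lines it was 5.4 CPM (5.2 to 5.6). These limits and intervals cover counting error only. Means were 0.0737 ± 0.0448 CPM in the low-Tnnt2 lines and 5.34 ± 0.824 CPM in the high-Tnnt2 lines (SD, n = 13 and 23), a fitted log2 fold change of -6.05. Since these values chose the lines, the difference carries no test.

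Tnni1 was known from earlier results to part the lines in the same way, and it is likewise described without a test. The low-Tnnt2 lines had 0 to 8 Tnni1 reads and the high-Tnnt2 lines 30 to 82. Levels were 0.132 ± 0.0618 CPM in the low-Tnnt2 lines, with a lowest, median and highest of 0, 0.137 and 0.211 CPM. In the high-Tnnt2 lines they were 2.57 ± 0.514 CPM, with 1.47, 2.55 and 3.41 CPM. No line of either side reached the other. Within the sides the troponins were not found to move together. Over the 23 high-Tnnt2 lines, Pearson's r between log2 Tnnt2 and log2 Tnni1 was -0.13 (permutation p = 0.555, Spearman's rho 0.013, permutation p = 0.956), and without BXD43 and BXD103, the lines farthest from the median, r was 0.11. BXD43 had the highest Tnnt2 (7.43 CPM) and the lowest Tnni1 (1.47 CPM) of the high-Tnnt2 lines. Over the 13 low-Tnnt2 lines r was 0.27 (permutation p = 0.377, rho 0.13, permutation p = 0.67), where single reads set the values, and without BXD87 and BXD32 it was 0.28. After Benjamini-Hochberg adjustment over these 2 relations both p were 0.555. Sorted by the size of r with Tnnt2 over the high-Tnnt2 lines, Arhgdib (-0.78), Eif4enif1 (0.77), Hpcal4 (-0.76), Lrch1 (0.74) and Cep250 (0.73) were most alike or opposite, a description over 23 lines picked from all genes. None of these 5 lies on chromosome 1.

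**Figure D1:**
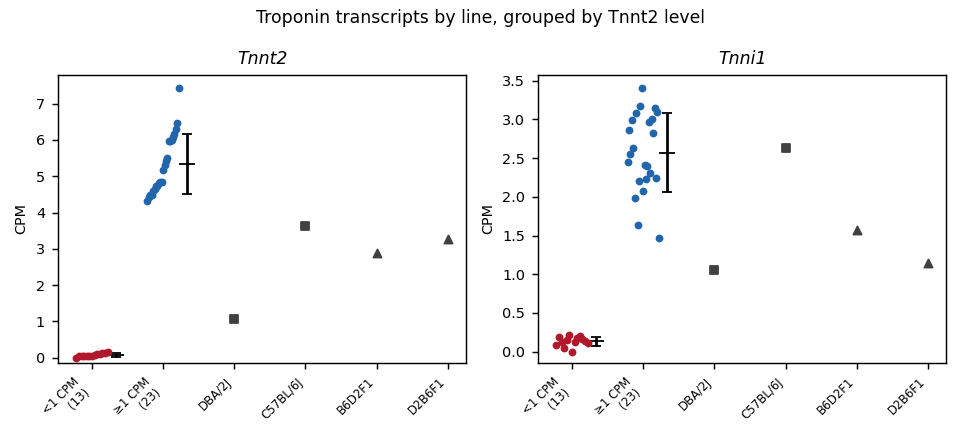
Tnnt2 and Tnni1 levels in CPM on linear axes, with 1 point per line for the 13 lines under 1 CPM of Tnnt2 and the 23 lines at or above it, black bars for mean ± SD, squares for the parents and triangles for the F1 hybrids. The low-Tnnt2 lines end at 0.153 CPM of Tnnt2 and 0.211 CPM of Tnni1, and the high-Tnnt2 lines start at 4.33 and 1.47 CPM.

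To ask which other transcripts differ between the sides, all genes with enough reads were fitted with edgeR over the 36 lines. Of 15633 genes other than the 2 troponins, 20 passed an adjusted p of 0.05, or 0.128%. Of these, 14 were lower (0.0896%) and 6 higher (0.0384%) in the low-Tnnt2 lines. Chromosome 1 held 19 of the 20 (2.07% of its 919 tested genes), with 14 lower (1.52%) and 5 higher (0.544%), and the rest of the genome, unplaced genes included, held 1 of 14714 (0.0068%). That single gene was Ttr, which rests on BXD32. Leaving out any one line gave 16 to 20 calls on chromosome 1 and 0 to 2 elsewhere, and without BXD32 there were 16 on chromosome 1 and 0 elsewhere, where 442 genes had an unadjusted p under 0.05. At an unadjusted p under 0.05 the shares over all lines were 4.05% of all genes, 10.6% on chromosome 1 and 3.64% elsewhere.

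The calls clustered around Tnnt2, mostly on the side of lower coordinates. In the gene order of GRCm38.p6, 5 of the 9 other genes within 10 tested places before Tnnt2 were called (55.6%), then 5 of 15 at 11 to 25 places (33.3%), 3 of 25 at 26 to 50 (12%) and 4 of 50 at 51 to 100 (8%). In these steps 7, 8, 8 and 11 genes had an unadjusted p under 0.05. Among the next 100 genes and the 384 beyond them, edgeR and DESeq2 called 0, while 11 and 15 passed an unadjusted p of 0.05. After Tnnt2, 2 of the nearest 10 were called (20%), and 6 of the 10 had an unadjusted p under 0.05. Beyond those, 0 were called by edgeR or DESeq2, with 2 of 15, 6 of 25, 12 of 50, 3 of 100 and 8 of 136 genes at an unadjusted p under 0.05 in the same steps. The median size of the log2 fold change was 0.27 in the nearest 9 genes before and 0.19 in the nearest 10 after Tnnt2, and 0.035 on other chromosomes.

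**Figure D2:**
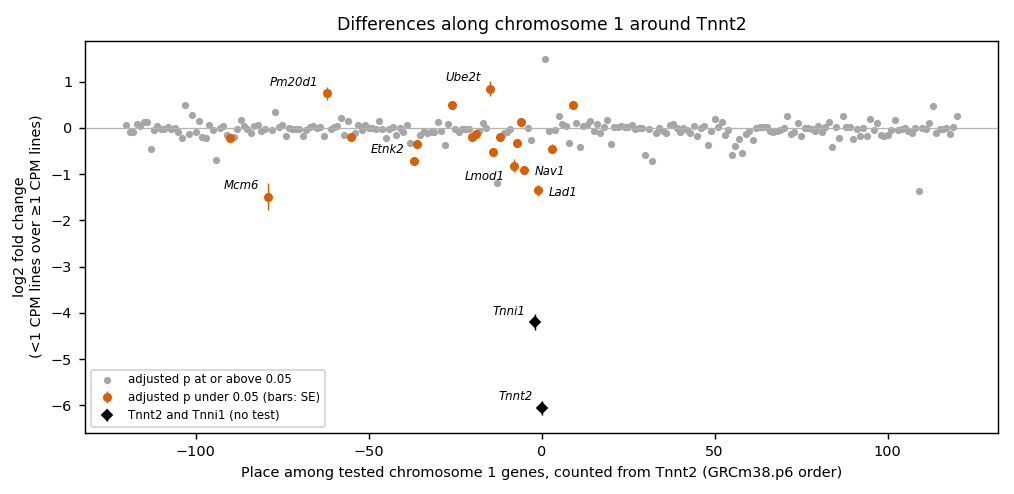
Log2 fold change, low-Tnnt2 lines over high-Tnnt2 lines, of each tested chromosome 1 gene up to 120 places from Tnnt2 in annotation order, with genes past adjusted p 0.05 in orange (bars are SE) and the troponins as black diamonds. Called genes run from Slc35f5, 90 places before Tnnt2, to Ddx59, 9 places after it.

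Among the genes next to Tnnt2, Lad1 and Nav1 fell, and in both no line of one side overlapped the other side, which held for 2 of 15633 genes (0.0128%). Lad1, next to Tnnt2, encodes ladinin, an anchoring filament protein of basement membranes. Its lowest, median and highest levels were 0.216, 0.990 and 1.38 CPM in the low-Tnnt2 lines, and 1.77, 2.42 and 3.29 CPM in the high-Tnnt2 lines. Lad1 averaged 0.978 ± 0.277 CPM in the low-Tnnt2 lines and 2.50 ± 0.424 CPM in the high-Tnnt2 lines, a log2 fold change of -1.35 ± 0.12 (SE) with an adjusted p = 7.05e-10 by edgeR. Nav1, a microtubule-associated neuron navigator that takes part in the guidance of growing axons, had levels of 120.4, 157 and 184 CPM (lowest, median and highest) in the low-Tnnt2 lines, and 232, 287 and 343 CPM in the high-Tnnt2 lines. On average Nav1 stood at 154 ± 15.4 CPM in the low-Tnnt2 lines and 289 ± 22.3 CPM in the high-Tnnt2 lines, with a log2 fold change of -0.91 ± 0.047 and an adjusted p = 8.34e-18 by edgeR. Over the 36 fits that each left out 1 line, the log2 fold change of Nav1 stayed between -0.93 and -0.88 and that of Lad1 between -1.40 and -1.26.

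The other genes near Tnnt2 did not share one direction. Ddx59, which encodes a DEAD-box RNA helicase and lies 9 places after Tnnt2, rose to 13.2 ± 1.10 CPM in the low-Tnnt2 lines, against 9.29 ± 0.959 CPM in the high-Tnnt2 lines (log2 0.50 ± 0.050, adjusted p = 5.31e-09 by edgeR). Only BXD48, at 10.6 CPM, kept its sides from parting. Ipo9, the nuclear import receptor importin 9, rose slightly (284 ± 17.03 CPM in the low-Tnnt2 lines, 259 ± 11.1 CPM in the high-Tnnt2 lines, log2 0.13 ± 0.028, adjusted p = 0.0242). Shisa4, a transmembrane protein gene, fell by 0.33 ± 0.045 on the log2 scale (adjusted p = 1.39e-05), with 46.9 ± 5.09 CPM in the low-Tnnt2 lines and 59.0 ± 4.91 CPM in the high-Tnnt2 lines. Cacna1s, the skeletal muscle L-type calcium channel subunit, fell by 0.45 ± 0.096 (1.87 ± 0.393 CPM in the low-Tnnt2 lines, 2.57 ± 0.434 CPM in the high-Tnnt2 lines, adjusted p = 0.0292). The call of Ipo9 was lost without BXD29, BXD32, BXD63, BXD67, BXD70 or BXD87, with an adjusted p of up to 0.0815, while its log2 fold change stayed between 0.12 and 0.15 over the 36 fits that left out 1 line each. That of Cacna1s was lost without BXD29, BXD32, BXD48, BXD65, BXD67, BXD79 or BXD100, with an adjusted p of up to 0.0874, while its log2 fold change stayed between -0.49 and -0.41.

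Between these called genes stood neighbours that edgeR did not call over all lines, some of them with little difference. Csrp1, which encodes a LIM-domain protein of smooth muscle and other cells and lies 4 places before Tnnt2, had 243 ± 36.7 CPM in the low-Tnnt2 lines and 242 ± 26.7 CPM in the high-Tnnt2 lines (log2 0.0056 ± 0.064). Tmem9 (log2 -0.078 ± 0.058), the kinesin gene Kif21b (-0.057 ± 0.032), Gpr25 (0.089 ± 0.080) and 5730559C18Rik (0.27 ± 0.094), the nearest tested genes after Cacna1s or beside it, each had an adjusted p of 1. The log2 fold change of 5730559C18Rik was larger than that of the called Ipo9 (0.13), and its unadjusted p was 0.00725 by edgeR. Phlda3, 3 places before Tnnt2, had 31.8 ± 5.39 CPM in the low-Tnnt2 lines, 38.3 ± 5.26 CPM in the high-Tnnt2 lines (log2 -0.27 ± 0.076, adjusted p = 0.484 by edgeR), and it passed without BXD43 (log2 -0.30, adjusted p = 0.0279) and with the first principal component as a covariate (log2 -0.25, adjusted p = 0.00196).

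Igfn1, the first tested gene after Tnnt2, is a special case. It encodes a protein of skeletal muscle with immunoglobulin and fibronectin domains. It was low throughout, with a lowest, median and highest of 0.383, 0.796 and 3.93 CPM in the low-Tnnt2 lines and 0, 0.234 and 3.71 CPM in the high-Tnnt2 lines. The top values came from BXD32 and BXD90, and apart from BXD90 the highest of the high-Tnnt2 lines was 0.483 CPM in BXD56. A single cut parted all but 2 of the 36 lines. The log2 fold change was 1.496 ± 0.42 with an adjusted p = 0.474 by edgeR over all lines, and 1.10 with an adjusted p of 1 without BXD32. Without BXD90 it was called, at 2.14 with an adjusted p = 1.05e-05 by edgeR, and DESeq2 called it over all lines at 2.14 ± 0.30 with an adjusted p = 1.96e-09. DESeq2 ran with its default replacement of outlying counts, and whether the count of BXD90 was replaced was not looked at. Its call therefore does not show that Igfn1 passes with BXD90 kept. With all lines kept, limma on the authors' normalized table called Igfn1 (log2 1.82 ± 0.36, adjusted p = 0.00932), a setting chosen after seeing the data. With the reads recovered from that table, edgeR did not call it (log2 1.51 ± 0.42, adjusted p = 0.492).

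**Figure D3:**
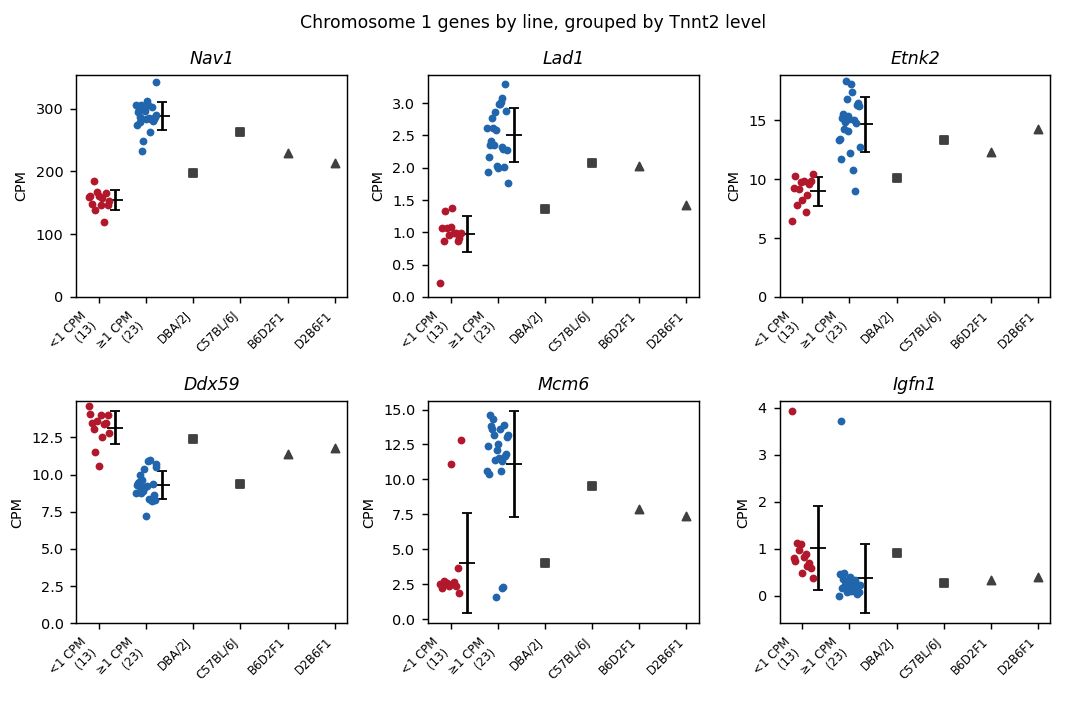
CPM on linear axes for 6 chromosome 1 genes, with 1 point per line for the 13 lines under 1 CPM of Tnnt2 and the 23 lines at or above it, black bars for mean ± SD, squares for the parents and triangles for the F1 hybrids. Nav1 and Lad1 part the sides without overlap, Mcm6 has 2 low-Tnnt2 and 3 high-Tnnt2 lines in the other cluster, and BXD32 and BXD90 stand far above the rest in Igfn1.

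Farther on the side of lower coordinates, called genes had many functions. Etnk2, ethanolamine kinase 2 of phospholipid synthesis, fell to 8.96 ± 1.22 CPM in the low-Tnnt2 lines, against 14.6 ± 2.32 CPM in the high-Tnnt2 lines (log2 -0.71 ± 0.078, adjusted p = 7.21e-08 by edgeR). Its neighbour Sox13, a transcription factor of the SoxD group, fell by 0.35 ± 0.047 (adjusted p = 1.21e-05), with 14.5 ± 1.16 CPM in the low-Tnnt2 lines and 18.5 ± 1.84 CPM in the high-Tnnt2 lines. Chil1, a chitinase-like secreted protein made by astrocytes and macrophages, rose by 0.49 ± 0.077 (21.7 ± 2.91 CPM in the low-Tnnt2 lines, 15.5 ± 3.13 CPM in the high-Tnnt2 lines, adjusted p = 0.000308). Pm20d1, an enzyme that joins fatty acids to amino acids, rose by 0.74 ± 0.14 (4.43 ± 0.787 CPM in the low-Tnnt2 lines, 2.64 ± 0.981 CPM in the high-Tnnt2 lines, adjusted p = 0.00307). The R-spondin receptor gene Lgr6 fell by 0.53 ± 0.091 (3.71 ± 0.779 CPM in the low-Tnnt2 lines, 5.33 ± 0.885 CPM in the high-Tnnt2 lines, adjusted p = 0.00129).

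Smaller changes in this stretch also passed the test. Klhl12, an adaptor of the ubiquitin ligase CUL3, stood at 47.3 ± 2.70 CPM in the low-Tnnt2 lines and 54.6 ± 3.29 CPM in the high-Tnnt2 lines (log2 -0.21 ± 0.031, adjusted p = 0.000134 by edgeR). Arl8a, a small GTPase that positions lysosomes, fell by 0.19 ± 0.035, Rabif, a chaperone of Rab GTPases, by 0.13 ± 0.025, and the solute carrier gene Slc35f5 by 0.22 ± 0.046. Cdk18 fell by 0.21 ± 0.045 with an adjusted p = 0.0339, and it lost its call in 17 of the 36 fits that left out 1 line, with an adjusted p of up to 0.104 and a log2 fold change between -0.24 and -0.19. Those lines were BXD29, BXD32, BXD44, BXD48, BXD49, BXD51, BXD55, BXD63, BXD65, BXD66, BXD71, BXD89, BXD95, BXD96, BXD100, BXD101 and BXD103. Ube2t, a ubiquitin-conjugating enzyme of DNA crosslink repair, rose by 0.85 ± 0.17 (adjusted p = 0.00949) at a low level of 0.676 ± 0.182 CPM in the low-Tnnt2 lines, 0.374 ± 0.141 CPM in the high-Tnnt2 lines.

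Mcm6, a subunit of the replicative helicase, showed 2 clusters of lines of its own. Among the low-Tnnt2 lines 11 lay between 1.88 and 3.66 CPM, while BXD48 had 11.1 and BXD87 12.8 CPM. Among the high-Tnnt2 lines 20 lay between 10.4 and 14.6 CPM, while BXD49 had 1.61, BXD85 2.21 and BXD98 2.33 CPM. Thus 5 lines took the other side of Mcm6, which lies 79 tested places before Tnnt2. Its mean was 3.99 ± 3.55 CPM in the low-Tnnt2 lines and 11.1 ± 3.79 CPM in the high-Tnnt2 lines, a log2 fold change of -1.48 ± 0.30 (adjusted p = 0.0143 by edgeR).

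Lines on the other side were also counted in further genes of this stretch. A line was counted when its log2 level was nearer to the median of the other side. In Slc35f5 these were BXD87 among the low-Tnnt2 lines and BXD49, BXD85, BXD96 and BXD98 among the high-Tnnt2 lines. In Etnk2 they were BXD85, BXD90 and BXD98, all high-Tnnt2 lines, and in Chil1, 26 places before Tnnt2, BXD85 alone. In Nav1, Tnni1 and Lad1 there were 0 such lines. The count did not fall steadily toward Tnnt2. Lgr6, 14 places before it, had 2 low-Tnnt2 and 4 high-Tnnt2 lines nearer to the other side. Klhl12, Arl8a, Lmod1 and Cacna1s, at 20, 12, 8 and 3 places, had 2 low-Tnnt2 and 3 high-Tnnt2 lines each, and Ube2t and Ipo9, at 15 and 6 places, 3 low-Tnnt2 and 2 high-Tnnt2 lines each. Where the sides differ little beside the spread of their lines, as in Ipo9, that spread alone can place a line nearer to the other side. These counts therefore do not show where along the chromosome a line changes its parental allele.

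The parents and hybrids, which the split did not use, were set beside the lines to ask which parent each side resembles. Tnnt2 took 28 reads in DBA/2J (1.06 CPM, exact Poisson 95% interval 0.705 to 1.53) and 93 reads in C57BL/6J (3.64 CPM, 2.94 to 4.46). The hybrids had 2.88 CPM (B6D2F1) and 3.26 CPM (D2B6F1). DBA/2J was thus the lower parent, but it stood above all 13 low-Tnnt2 lines, and C57BL/6J and both hybrids stood below all 23 high-Tnnt2 lines. For Tnni1, DBA/2J had 28 reads (1.06 CPM, 0.705 to 1.53) and C57BL/6J 67 reads (2.63 CPM, 2.03 to 3.33), with 1.57 CPM in B6D2F1 and 1.15 CPM in D2B6F1. Here C57BL/6J lay among the high-Tnnt2 lines, and DBA/2J and D2B6F1 lay between the sides.

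Most of the called genes differed between the parents in the direction of the lines. With 1 library per parent there is no test. Of the 19 called genes on chromosome 1, 17 had a DBA/2J minus C57BL/6J difference with the sign of the low-minus-high difference of the lines. The same sign was found in 47.8% of all 15635 genes fitted. Of the 11 whose parental difference was over 2 counting SE, 9 had the same sign. The sign alone does not place DBA/2J near the low-Tnnt2 lines. Nav1 had 197 CPM in DBA/2J and 263 CPM in C57BL/6J (log2 -0.44, counting SE 0.027), and the hybrids lay between them at 229 CPM in B6D2F1 and 213 CPM in D2B6F1. Mcm6 had 4.01 CPM in DBA/2J and 9.52 CPM in C57BL/6J (log2 -1.25, counting SE 0.17). Chil1 (0.54, SE 0.095) and Ddx59 (0.38, SE 0.12) were higher in DBA/2J. Igfn1 too was higher in DBA/2J, with 0.909 CPM against 0.274 CPM in C57BL/6J. The exceptions were Sox13 (0.20, SE 0.098) and Arl8a (0.12, SE 0.029), which were lower in the low-Tnnt2 lines and yet higher in DBA/2J.

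In most of these genes the parents stood closer together than the means of the sides. On a linear scale from 0 at the mean of the low-Tnnt2 lines to 1 at that of the high-Tnnt2 lines, the median position of DBA/2J over the 19 genes was 0.315 and that of C57BL/6J 0.828, with 0.491 for B6D2F1 and 0.475 for D2B6F1. For Tnnt2 itself the positions were 0.188 for DBA/2J and 0.679 for C57BL/6J, and for Nav1 they were 0.315 for DBA/2J and 0.812 for C57BL/6J. In Lmod1 (0.661), Pm20d1 (0.613), Cdk18 (0.584) and Cacna1s (0.518) DBA/2J stood nearer to the high-Tnnt2 mean, although the signs were the same. It did so too in Sox13 (0.931) and Arl8a (1.025), where the signs differed. The parents stood farther apart than the sides in Slc35f5 (-0.466 for DBA/2J and 0.695 for C57BL/6J), Chil1 (-0.034 for DBA/2J and 1.093 for C57BL/6J) and Ipo9 (0.415 for DBA/2J and 1.459 for C57BL/6J). In 8 of the 19 genes the levels of both F1 libraries fell between the parental ones.

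**Figure D4:**
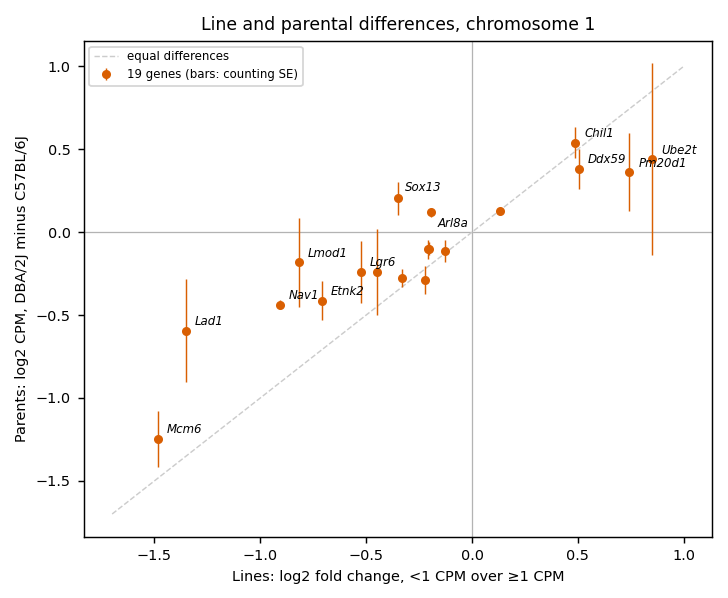
Parental difference (log2 CPM, DBA/2J minus C57BL/6J, bars are counting SE) against the log2 fold change of the low-Tnnt2 over the high-Tnnt2 lines for the 19 called chromosome 1 genes; the dashed line marks equal differences. Of the 19 points 17 lie where both differences have the same sign, and Sox13 and Arl8a do not.

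Because Tnnt2 and Tnni1 are muscle genes, the rest of the contractile apparatus was described over the same lines. The counts for these lists stand beside a share over all genes of 0.128% called and 4.05% at an unadjusted p under 0.05. Of the other 6 troponin genes 3 had enough reads to be tested and 0 were called by edgeR or DESeq2, with 0 at an unadjusted p under 0.05. Tnnc1, the calcium-binding subunit of slow and cardiac muscle, had 3.44 ± 0.731 CPM in the low-Tnnt2 lines and 3.25 ± 0.493 CPM in the high-Tnnt2 lines. Tnni3, cardiac troponin I, had 1.06 ± 0.278 CPM in the low-Tnnt2 lines and 1.11 ± 0.278 CPM in the high-Tnnt2 lines. Tnnt1, slow skeletal troponin T, had 2.63 ± 1.504 CPM in the low-Tnnt2 lines and 2.92 ± 1.68 CPM in the high-Tnnt2 lines. The fast skeletal genes Tnnt3, Tnni2 and Tnnc2 had at most 17 reads in any line and were not tested.

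Among 28 tested sarcomere genes 15 were lower and 13 higher in the low-Tnnt2 lines, with a median log2 fold change of -0.009, where that of all genes was -0.0006. Only Lmod1 was called. The cardiac myosins Myh6 (11.6 ± 2.43 CPM in the low-Tnnt2 lines, 10.3 ± 2.65 CPM in the high-Tnnt2 lines) and Myh7 (8.02 ± 1.08 CPM in the low-Tnnt2 lines, 8.91 ± 1.16 CPM in the high-Tnnt2 lines) and the tropomyosin gene Tpm1 (115 ± 8.01 CPM in the low-Tnnt2 lines, 114 ± 6.80 CPM in the high-Tnnt2 lines) each had an adjusted p of 1. In the list of cardiac regulators and calcium handling, 1 of 20 was called, Cacna1s. There 16 were lower and 4 higher in the low-Tnnt2 lines, with a median of -0.045. The other of 2 genes with an unadjusted p under 0.05 was Casq1, which was higher (log2 0.25 ± 0.11, unadjusted p = 0.0314 by edgeR). In the same list the M-CAT binding factor Tead1 (log2 -0.027 ± 0.049), Mef2c (-0.098 ± 0.11), Srf (-0.018 ± 0.042) and the ryanodine receptor Ryr2 (-0.033 ± 0.048) had an adjusted p of 1. Gata4 and Nkx2-5, which drive cardiac genes, had at most 2 and 1 reads in any line. Muscle creatine kinase, Ckm, had at most 11 reads. The called members of these lists, Lmod1 and Cacna1s, both lie within 8 tested places of Tnnt2.

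Lmod1 encodes leiomodin 1, an actin filament nucleator of smooth muscle. It fell to 1.41 ± 0.367 CPM in the low-Tnnt2 lines, against 2.49 ± 0.781 CPM in the high-Tnnt2 lines (log2 -0.82 ± 0.14, adjusted p = 0.00129 by edgeR). All 9 tested smooth muscle genes leaned the same way, with a median of -0.214, but Lmod1 alone was called. An unadjusted p under 0.05 was reached by 2 of them, Lmod1 and Cnn1. Cnn1 had a log2 fold change nearly as large (-0.75 ± 0.30, unadjusted p = 0.0183 by edgeR). Its level was low, at 0.388 ± 0.253 CPM in the low-Tnnt2 lines and 0.681 ± 0.502 CPM in the high-Tnnt2 lines. Acta2 (-0.22 ± 0.17), Myh11 (-0.21 ± 0.13) and Tagln (-0.23 ± 0.17), abundant smooth muscle transcripts, each had an adjusted p of 1. The summed level of this list was 69 to 124 CPM in the low-Tnnt2 lines and 73.3 to 174 CPM in the high-Tnnt2 lines, and its part in the Lmod1 result was not tested. With the reads of the authors' normalized table Lmod1 lost its call (log2 -0.66 ± 0.23, adjusted p = 1).

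Apart from Ttr, no listed marker of the other brain cell types and regions passed the test. Over all genes 0.128% were called and 4.05% had an unadjusted p under 0.05. Lists of 8 to 24 genes would mostly hold 0 calls at that share, so their 0 calls do not set them apart from other genes. Of 24 hypothalamic transcription factors, 12 myelin, 12 microglial, 11 endothelial, 9 astrocyte, 10 tanycyte and ependymal, 9 thalamic, 8 cortical and 8 pituitary genes tested, 0 were called by edgeR or DESeq2, and 0, 2, 1, 0, 1, 0, 0, 0 and 1 of them in this order had an unadjusted p under 0.05. Nor were any of 22 interferon, 18 immediate early, 20 heat shock, 15 circadian or 22 oxidative phosphorylation genes, with 1, 1, 0, 1 and 0 at an unadjusted p under 0.05. All 11 striatal genes were lower in the low-Tnnt2 lines, with a median of -0.237, 5 unadjusted p under 0.05 and 0 calls. Their summed level was 554 to 769 CPM (median 694 CPM) in the low-Tnnt2 lines and 602 to 1940 CPM (median 726 CPM) in the high-Tnnt2 lines. The medians thus lay much closer together than the highest values. All 11 meningeal genes were lower as well, with a median of -0.367, 1 unadjusted p under 0.05 and 0 calls. Their summed level was 98 to 250 CPM (median 138 CPM) in the low-Tnnt2 lines and 98.6 to 424 CPM (median 173 CPM) in the high-Tnnt2 lines. All 12 myelin genes were higher, with a median log2 fold change of 0.113 and 0 calls. Their summed level was 4590 to 8310 CPM (median 5270 CPM) in the low-Tnnt2 lines and 4140 to 6590 CPM (median 5320 CPM) in the high-Tnnt2 lines, so the median line was not higher on the low-Tnnt2 side. Of 7 blood genes 6 had no read in any line, and Alas2 was not called (log2 -0.40, unadjusted p = 0.0333). The part of these cell types in the chromosome 1 results was not tested. In bulk RNA, fewer cells of a type and less RNA per cell cannot be told apart.

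Ttr, the only call outside chromosome 1, was carried by few lines. Its lowest, median and highest levels were 0.682, 1.27 and 808 CPM in the low-Tnnt2 lines, and 0.245, 1.19 and 51 CPM in the high-Tnnt2 lines. The medians were thus alike, and BXD32 (808 CPM), BXD65 (78.6 CPM) and BXD63 (22 CPM) among the low-Tnnt2 lines and BXD101 (51 CPM) among the high-Tnnt2 lines stood far above the others. The fitted log2 fold change was 4.17 ± 0.90 (adjusted p = 0.0383 by edgeR), and without BXD32 it was 1.28 with an adjusted p of 1. The call was also lost without BXD65 or without any one of the high-Tnnt2 lines other than BXD101. Of the other 9 choroid plexus genes 0 were called and 1 had an unadjusted p under 0.05. That was the potassium channel subunit gene Kcne2, at 7.04 CPM in BXD32 and 0.227 to 1.36 CPM in the other BXD lines. The summed level of all 10 had a median of 118 and a highest value of 992 CPM in the low-Tnnt2 lines, and 112 and 157 CPM in the high-Tnnt2 lines, with a median log2 fold change of 0.246. These list values include BXD32. Without Ttr the list summed to 184 CPM in BXD32 and to 100 to 133 CPM in the other BXD lines.

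**Figure D5:**
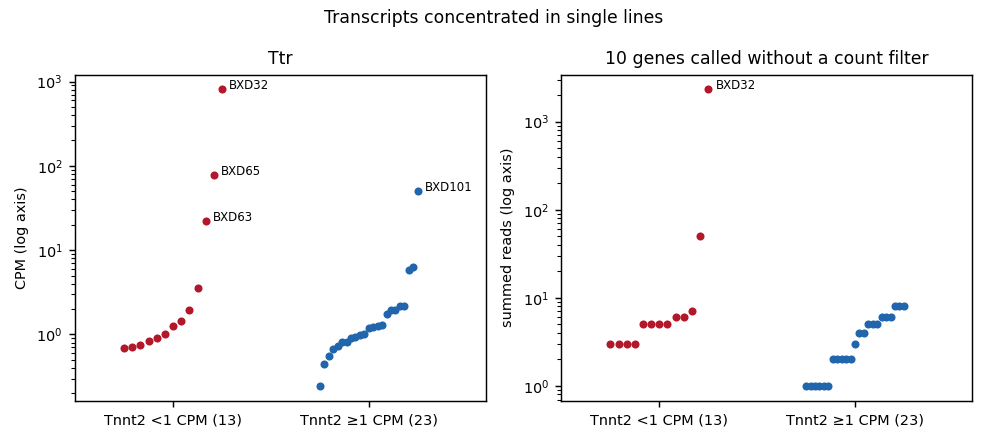
Ttr in CPM (left) and the summed reads of the 10 genes that were called outside chromosome 1 besides Ttr when no filter on low counts was used (right), both on log axes, with 1 point per line for the 13 low-Tnnt2 and the 23 high-Tnnt2 lines. BXD32 holds 808 CPM of Ttr and 2322 of the summed reads, where the other low-Tnnt2 lines hold 3 to 50 and the high-Tnnt2 lines 1 to 8.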

How the data were processed

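RNA was sequenced from the hypothalamus of 36 BXD lines, 2 parental strains and 2 F1 hybrids, as stranded mRNA libraries per the labels' protocols. The submitters' processing notes name TopHat2 2.0.8, HTSeq 0.5.4p3 and DESeq with assembly mm9, without roles or parameters; the annotation is not given in the sources used here. The authors deposited read counts for 23955 gene symbols, used for all main results, and a normalized signal, counts divided by a size factor per library. Tested on its values, 100% were whole reads within 0.01 reads, but only 36.5% of values equalled those of the count table, so it served for alternatives.

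The members, gene lists and tests were chosen with earlier results of these data known. CPM are counts over the library total. edgeR 4.0.16 (R 4.3.3; quasi-likelihood, TMM, filterByExpr, Benjamini-Hochberg adjusted p under 0.05) tested 15635 genes; SE are the log2 fold change over the root of F. DESeq2 1.42.0 and limma 3.58.1 were alternatives. The fit was tested on simulated data with 50 changed genes at each size. It recovered 70% at a log2 change of 0.25, 88% at 0.5 and 100% at 1 and 2. There were 11 false calls among 15635 genes, and changes under 0.25 were not simulated. Correlations used log2 CPM with a prior count of 2 and 100000 permutations, two-sided. Chromosome and gene order came from GENCODE vM21 and RefSeq on GRCm38.p6 by symbol, with 127 symbols not placed; no mm9 annotation was used, so gene coordinates are not given. Named genes were the 6 tested genes nearest to Tnnt2 on each side, the 12 called genes with the largest fold on chromosome 1 and elsewhere, called genes without overlap, called list members, troponin and sarcomere genes from 1 CPM, and the 5 genes with the largest r with Tnnt2. The other called genes (Ube2t, Slc35f5, Klhl12, Cdk18, Arl8a, Rabif) and the further list members named were chosen after their values were seen. Libraries were distinct, with correlations of log2 CPM from 0.973 to 0.996.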

Additional observations from a re-analysis of the deposited data

How the results depend on the processing

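Counts on chromosome 1 stayed at 15 to 20 under all settings tried and at 16 to 20 when any one line was left out, against 19 in the main fit. Elsewhere 1 gene was called in the main fit and 0 to 2 when one line was left out. Without a filter on low counts there were 11. The 10 beside Ttr had most of their reads in BXD32 or, for S100a5, in BXD83. With the first principal component as a covariate 0 were called, and without BXD29 and BXD32 also 0. Choroid plexus genes as a covariate and limma on the normalized table, both chosen after seeing the data, gave 0 as well. In this order these settings had 743, 413, 458 and 503 genes elsewhere at an unadjusted p under 0.05. DESeq2 was run only over all lines without a covariate, where it called 1 gene elsewhere, Ttr. Thresholds of 0.5 and 2 CPM gave the same lines. Without BXD29 and BXD32 the calls of Cacna1s, Cdk18, Ipo9 and Mcm6 (adjusted p = 0.0868) were lost as well, and the cause was not tested. The r of the troponins over the high-Tnnt2 lines changed sign to 0.108 without the 2 lines farthest from the median. Csrp1, not called, ran from -0.023 to 0.031 when one line was left out, and 9 of those fits turned its sign. The parental sign count was 18 of the 20 called genes, Ttr among the 18, and stayed within a factor of 1.5 under both alternatives. That range is wide for a count that cannot exceed 20, so it says little about how stable the count is. No paired analysis was possible because no BXD line has a partner on the other side. Depth limits Tnnt2 in the low-Tnnt2 lines, where 3 counts stand for 0.0743 to 0.163 CPM.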
